A study of Mus musculus with 12 samples.

Results

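The liver of each of 12 mice was examined for the 10 genes of the core circadian clock: the activating limb Arntl (also named Bmal1), Clock and Npas2, and the repressing limb Per1, Per2, Per3, Cry1, Cry2, Nr1d1 and Nr1d2. Members were all probes whose transcript accession belonged to 1 of these genes. Each gene had exactly 1 probe, so the set was 10 probes of 39429 on the array, or 10 of 20882 genes with a symbol. All mice were female C57BL/6N and fed variants of a normal formula diet for 6 months. They were kept on a 12-h light-dark cycle, with the lights coming on in the evening. Ctrl mice had corn starch and sucrose as the carbohydrate, and RS mice had that diet with added resveratrol, a plant polyphenol. In the DJ group the starch and sucrose gave way to Dongjin rice, and in the DJ526 group to DJ526 rice, a Dongjin line that carries a stilbene synthase gene from peanut and makes resveratrol in its grain. DJ526 and DJ diets therefore differed by the transferred gene as well as by resveratrol. Each group had 3 mice and 1 array a mouse. Mice were housed 10 to a cage and cages were assigned to the diets at random, so a cage held mice of 1 diet. Which of the 3 mice of a group shared a cage is not given. The hour at which each liver was taken is not given in the sources used here, nor whether the groups were taken in the same order or at the same hour.

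The molecular clock is a feedback loop of transcription and translation. ARNTL pairs with CLOCK or its relative NPAS2 and switches on the Per, Cry and Nr1d genes; PER and CRY proteins then inhibit the pair, and NR1D1 and NR1D2 (REV-ERB alpha and beta) repress Arntl itself. In mouse liver the mRNAs of the activating limb and those of Nr1d1, Nr1d2, Per3 and the output gene Dbp peak at nearly opposite times of day, whereas the Cry1 mRNA peaks late, close to Arntl. One liver per mouse taken once gives 1 point on that cycle.

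The arrays carried spots well above background for 73.0% to 80.8% of the spots tested, and the 75th percentile of processed signal, used to scale each array, ran from 902 to 1102 intensity units. A level below is the log2 processed signal of the probe less the log2 of that percentile, so it compares mice for 1 probe and not 1 probe with another. The 12 arrays lay on 3 slides, with Ctrl 1, 2 and 3 and DJ 1 on the first, RS 1 and 2 and DJ 2 and 3 on the second, and RS 3 and all DJ526 mice on the third. Slide and diet go together in large part. All 6 hepatocyte markers were well above background on all 12 arrays. No array stood apart from all others: the smallest SD of log2 differences to another array was between 0.330 and 0.419 for each. Whole liver RNA was measured, so fewer cells of a type and less RNA per cell cannot be told apart.

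None of the 10 clock genes passed the test in any comparison of diets, and none did in the test for any difference among the 4 groups. Only Per2 had an unadjusted p under 0.05, in DJ against Ctrl, in DJ526 against DJ, in the difference between the resveratrol effect on rice and that on starch, and among the 4 groups. The lowest adjusted p of any clock gene by limma, adjusted over 39429 probes, was 0.911 in RS against Ctrl, 0.640 in DJ against Ctrl, 0.626 in DJ526 against Ctrl, 0.176 in DJ526 against DJ, and 0.986 in DJ526 against RS. Few probes of the array passed either. The share called over all probes was 0% in RS against Ctrl and in DJ against Ctrl, 0.00507% in DJ526 against Ctrl, 0.0101% in DJ526 against DJ, 0.00761% in DJ526 against RS, 0% for the difference of resveratrol effects and 0.00507% among the 4 groups. At an unadjusted p under 0.05 the shares were 6%, 5.25%, 10.8%, 9.84%, 5.51%, 6.14% and 7.74% in that order. Clock gene counts at that p were 0, 1, 0, 1, 0, 1 and 1 of 10.

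**Figure D1:**
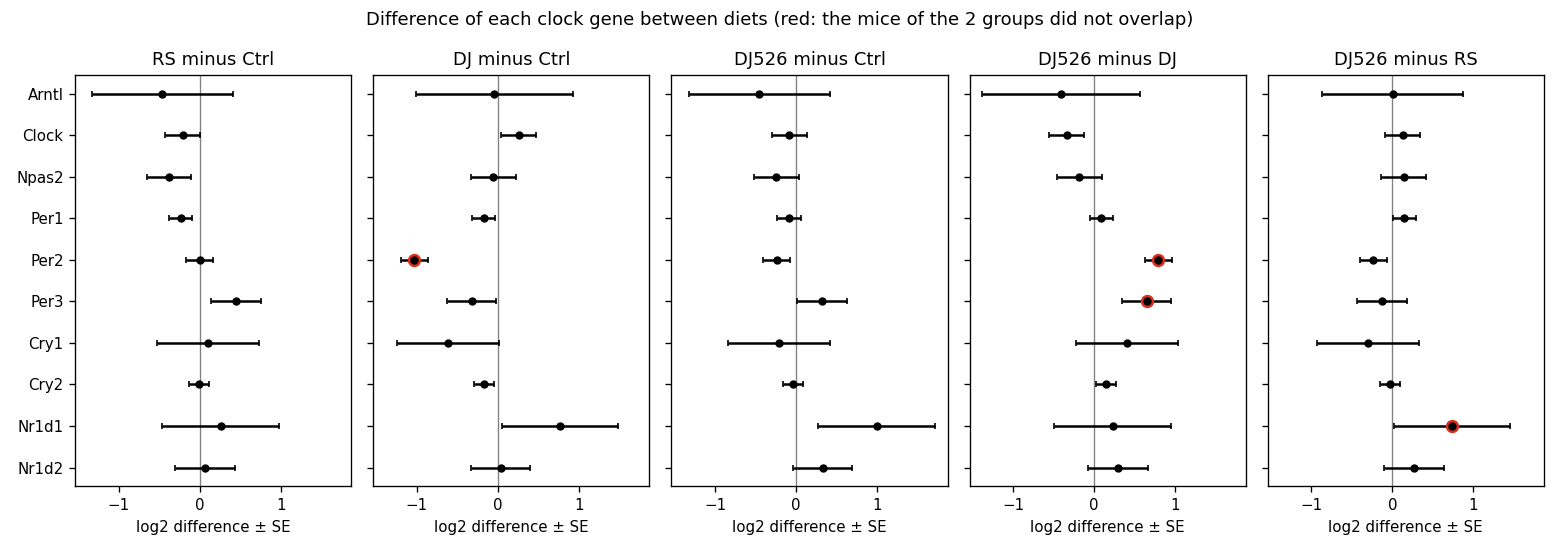
Log2 difference of each clock gene between diets, with the limma standard error, in 5 comparisons; red points mark genes whose mice did not overlap between the 2 groups. Per2 stood at -1.03 in DJ minus Ctrl and at 0.79 in DJ526 minus DJ, and no gene passed the adjusted threshold.

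Per2 encodes a PER protein of the repressing limb, one of the pair of period proteins most needed for the rhythm. Its level was -0.48, -0.56 and -0.32 in Ctrl mice 1, 2 and 3, and -0.62, -0.45 and -0.30 in RS mice. It was -1.33, -1.53 and -1.59 in DJ mice, and -1.11, -0.42 and -0.55 in DJ526 mice. All 3 DJ mice lay below all 9 others, a pattern that 0.455% of 39361 probes with a value on every array shared. Random order of the mice would give about that share, so the array held no excess of this pattern. Per2 was also 1 of 10 clock genes examined, so the share is a description and not a test of Per2. Group means in order were -0.45 ± 0.12 in Ctrl, -0.45 ± 0.16 in RS, -0.69 ± 0.37 in DJ526 and -1.48 ± 0.13 in DJ (SD, n = 3 each); the first 3 overlapped. Per2 was 2.04-fold lower in DJ than in Ctrl, a log2 difference of -1.03 (SE 0.17, unadjusted p = 6.9e-05, adjusted p = 0.640 by limma over all probes). In DJ526 it stood 1.73-fold above DJ, a log2 difference of 0.79 (SE 0.17, adjusted p = 0.176 by limma). An exact permutation test of 3 mice against 3 gave p = 0.1 for both, two-sided, which is the smallest that such a design allows. DJ526 and Ctrl differed by -0.24 (SE 0.17, adjusted p = 0.626 by limma), and RS and Ctrl by -0.00097 (SE 0.17). The effect of resveratrol on rice less that on starch was 0.79 (SE 0.24, adjusted p = 0.616 by limma). Of the Per2 variation over mice, 84.7% lay between diets, against a median of 28.5% over the 27297 probes well above background on every array. The array as a whole made no adjusted call in DJ against Ctrl.

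Within slides, too, the DJ mice had the lower Per2 levels. On the first slide the single DJ mouse lay 0.88 log2 units below the mean of the 3 Ctrl mice. Ctrl lies on that slide alone, so the fit with the slide as a fixed block gives this same value, which rests on 1 DJ mouse (adjusted p = 0.273 by limma). Over all alternatives run, the Per2 difference of DJ from Ctrl lay between -1.10 and -0.88, with adjusted p between 0.165 and 0.9999 by limma or the methods' test. On the second slide the mean of 2 DJ mice was 1.02 below that of 2 RS mice. On the third slide the 3 DJ526 mice averaged 0.40 below the 1 RS mouse. The 124 probes printed around the Per2 spot with levels within 2 log2 units of it had a median DJ-minus-Ctrl difference of -0.09.

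Per1 and Per3, the other period genes, gave no such step. Per1, a PER gene that also answers directly to hormones and other signals, was steady, between 2.56 in RS mouse 1 and 3.33 in Ctrl mouse 1, a 1.71-fold range over the 12 mice. Per3, the period gene whose loss disturbs the rhythm least, was -1.93, -3.30 and -2.43 in Ctrl mice and -2.14, -2.38 and -1.81 in RS mice. Its level was -2.95, -2.95 and -2.73 in DJ and -2.65, -2.11 and -1.94 in DJ526. The DJ mice sat low and close together (SD 0.12), and Ctrl mouse 2 was lower than any of them. DJ526 exceeded DJ without overlap, by 0.64 (SE 0.31, unadjusted p = 0.059, adjusted p = 0.521 by limma). Per2 and Per3 were the only clock genes whose mice did not overlap between DJ526 and DJ, 2 of 10, where 18.5% of all probes had no overlap. In DJ against Ctrl it was Per2 alone, 1 of 10 where 9.41% had none. In RS against Ctrl and DJ526 against Ctrl it was 0 of 10, against 10.2% and 20.8%. Those shares leave Per2 and Per3 near the background of this count.

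**Figure D2:**
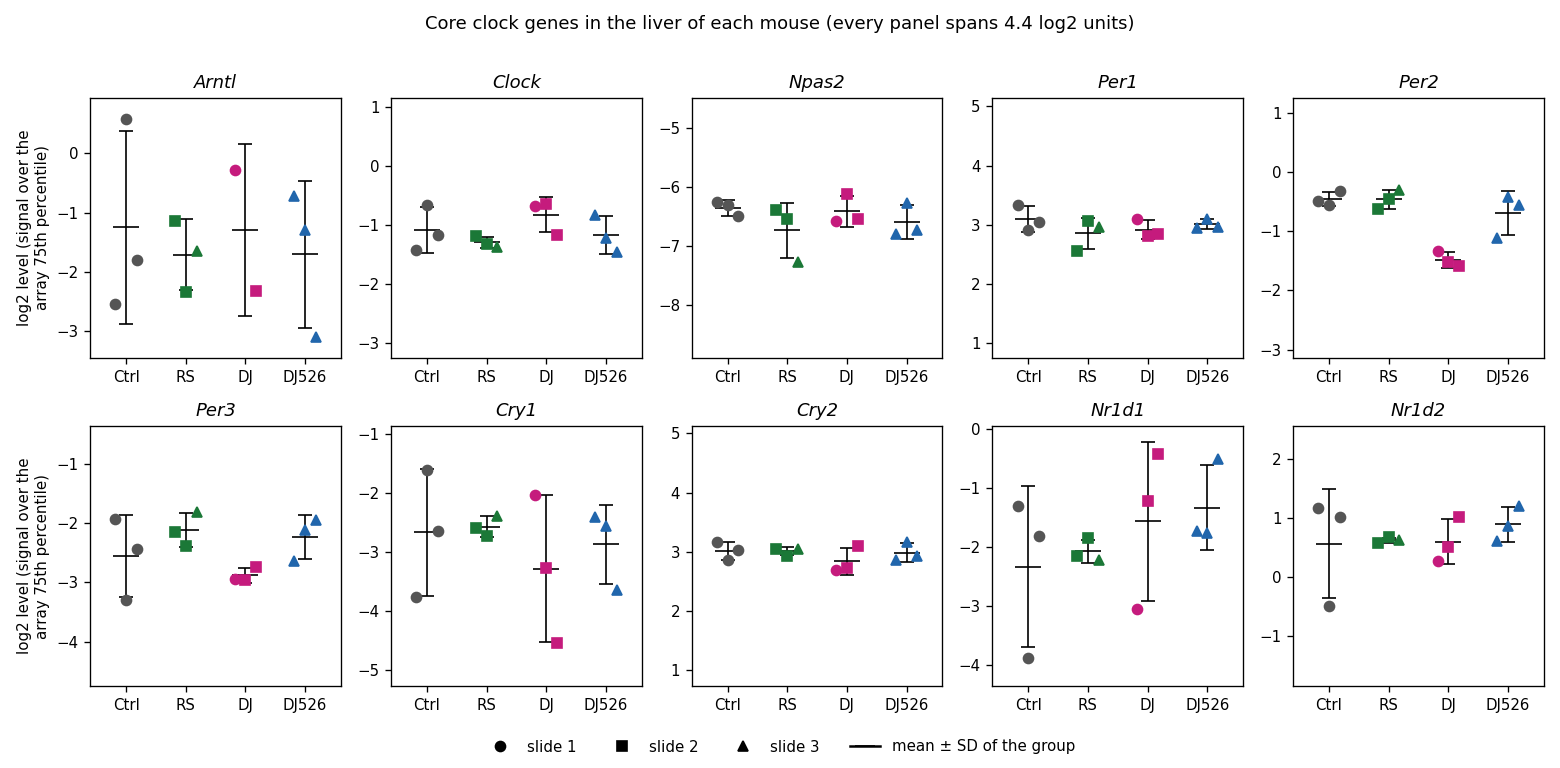
Log2 level of each clock gene in every mouse by diet, with marker shape for slide and bars for the group mean ± SD; all panels span the same 4.4 log2 units, and DJ mouse 2 has no Arntl point. Per2 in DJ lies below the other 9 mice, while Arntl, Cry1 and Nr1d1 spread widely inside Ctrl and DJ.

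Arntl is the clock gene without which the loop stops. Its level was -2.54, 0.58 and -1.80 in Ctrl mice, -1.15, -2.35 and -1.64 in RS, -0.27 and -2.32 in DJ mice 1 and 3, and -0.72, -1.30 and -3.10 in DJ526. It ranged 12.8-fold, highest in Ctrl mouse 2 and lowest in DJ526 mouse 3, and every pair of groups overlapped. Group means were -1.25 ± 1.63 in Ctrl, -1.71 ± 0.60 in RS, -1.30 ± 1.45 in DJ (n = 2) and -1.71 ± 1.24 in DJ526 (SD, n = 3 in the others). The within-group SD of 1.26 was larger than that of 99.6% of the 27297 probes, whose median was 0.19. In DJ mouse 2 the only Arntl spot carried the scanner software's flag for uneven pixels and was left out, so that mouse has no value in the fit. Kept, its level would be 4.58, above every other mouse, and the DJ-minus-Ctrl difference would turn from -0.04 (SE 0.97) to 1.91.

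Nr1d1, the nuclear receptor REV-ERB alpha that represses Arntl, ranged 10.9-fold. It stood at -1.30, -3.88 and -1.82 in Ctrl and -2.15, -1.86 and -2.22 in RS. In DJ it was -3.05, -1.22 and -0.43, and in DJ526 -1.74, -1.77 and -0.51. Ctrl mouse 2, highest for Arntl, was lowest here, and DJ mouse 3 was highest. All DJ526 mice were above all RS mice, by 0.74 on average (SE 0.72, adjusted p = 0.986 by limma), the single clock gene without overlap in that pair, where 11.1% of probes had none. The sign of the Nr1d1 difference from Ctrl turned with the slide as a fixed block, from 0.76 to -0.72 in DJ and from 0.99 to -1.01 in DJ526. Both blocked values reach Ctrl through DJ mouse 1, the only mouse of another diet on the Ctrl slide, and the DJ value is the difference of that mouse from the 3 Ctrl mice. Without Ctrl mouse 2 the DJ difference was -0.01. Nr1d2, REV-ERB beta, also had its lowest level, -0.49, in Ctrl mouse 2, and its highest, 1.21, in DJ526 mouse 3, a 3.26-fold range, with RS mice close together at 0.58, 0.67 and 0.62.

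Cry1 encodes the cryptochrome that most strongly inhibits ARNTL and CLOCK. It was -3.75, -1.60 and -2.64 in Ctrl, -2.59, -2.73 and -2.39 in RS, -2.03, -3.28 and -4.53 in DJ, and -2.41, -2.56 and -3.64 in DJ526, a 7.59-fold range. It was highest in Ctrl mouse 2 and lowest in DJ mouse 3, the reverse of Nr1d1, and the groups overlapped throughout. Cry2, the second cryptochrome, moved least of all, 1.39-fold from 2.69 to 3.16. Clock, the partner of ARNTL, ranged 1.76-fold, with its lowest level of -1.46 in DJ526 mouse 3 and levels of -0.68, -0.64 and -1.17 in DJ. Npas2, the partner that can stand in for CLOCK, was close to the background: its processed signal was 6.17 to 13.4 intensity units, and in RS mouse 3 it was not well above background. Values for Npas2 are therefore of low reliability.

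The within-group SD of the other clock genes exceeded that of 99.1% of probes for Nr1d1 (SD 1.03), 98.7% for Cry1 (0.89), 93.3% for Nr1d2 (0.52) and 88.6% for Per3 (0.42). It exceeded that of 77.1% for Npas2 and 74.5% for Clock, and was nearer the middle for Per2 (58.5%), Per1 (50.7%) and Cry2 (40.1%). The RS mice had the smallest SD of the 4 groups for Arntl, Clock, Cry1, Cry2, Nr1d1 and Nr1d2. They did not for Npas2, Per1, Per2 and Per3. Their SD for Nr1d1 was 0.19, against 1.36 in Ctrl and 0.37 in the 2 Ctrl mice left without Ctrl mouse 2. In the same order the SDs were 0.17, 1.07 and 0.79 for Cry1, and 0.05, 0.92 and 0.10 for Nr1d2. They were 0.10, 0.39 and 0.17 for Clock, and 0.60, 1.63 and 0.52 for Arntl. With 3 mice a group, a difference between such SDs was not tested.

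The mice with high Arntl were those with high Clock and Cry1 and low Nr1d1 and Nr1d2. The relation of Arntl to each of the 9 other genes was computed over the 11 mice with an Arntl value, with two-sided permutation p adjusted by Benjamini-Hochberg over the 9. Clock rose with Arntl (Pearson r = 0.903, Spearman rho = 0.827, p = 0.00011, adjusted p = 0.00076), and so did Cry1 (r = 0.816, rho = 0.873, p = 0.0023, adjusted p = 0.0052). Nr1d2 fell as Arntl rose (r = -0.898, rho = -0.909, p = 0.00017, adjusted p = 0.00076), as did Nr1d1 (r = -0.884, rho = -0.700, p = 0.00038, adjusted p = 0.0011). Per3 did too (r = -0.711, rho = -0.609, p = 0.014, adjusted p = 0.026), though by rank its adjusted permutation p was 0.091. Cry2 had r = -0.519 (adjusted permutation p = 0.153), Per1 -0.222, Per2 -0.177 and Npas2 0.134, and these 4 did not pass. Per2, low in the DJ mice without an adjusted call, was thus not among those that went with Arntl.

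**Figure D3:**
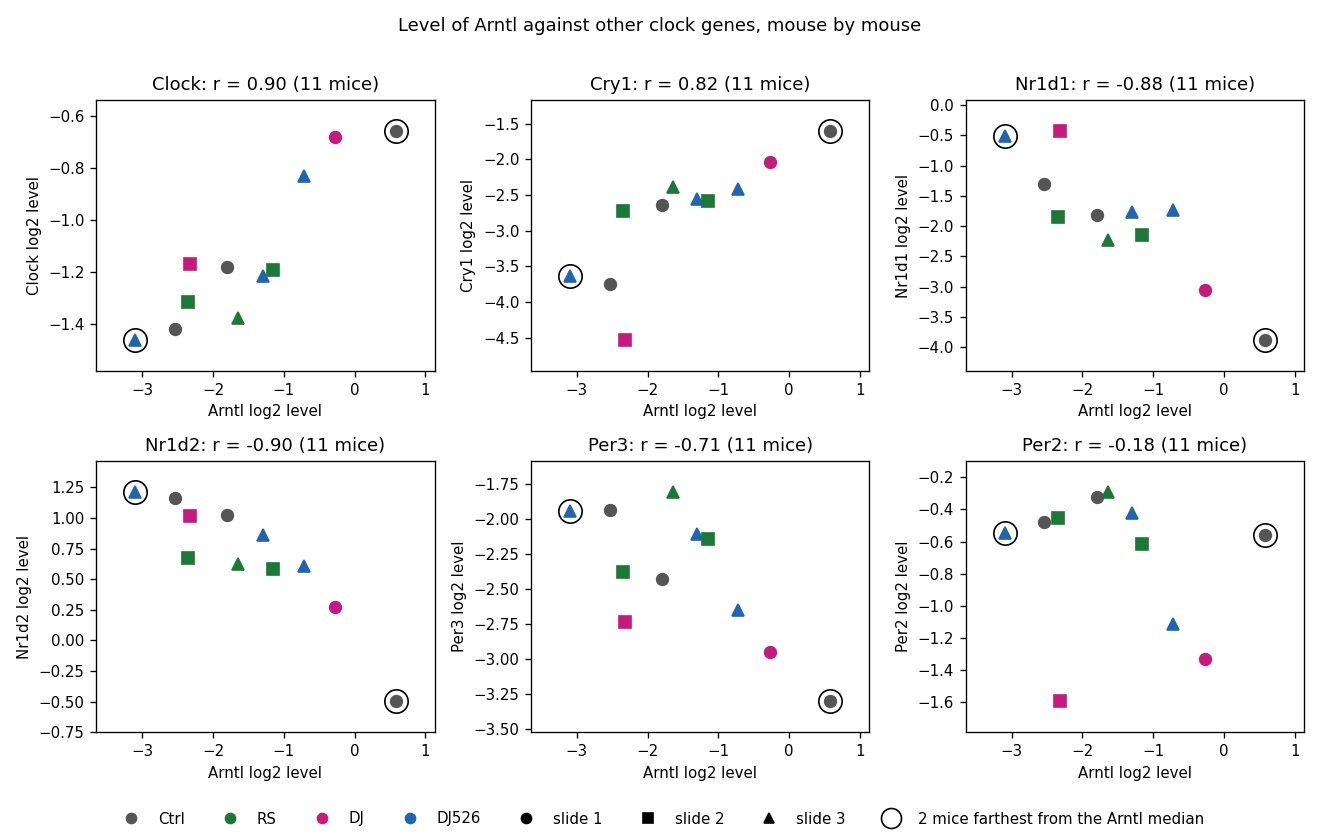
Arntl level on the x axis against the level of 6 other clock genes on the y axis, both log2, 1 point a mouse for 11 mice, coloured by diet and shaped by slide; rings mark the 2 mice farthest from the Arntl median. Clock and Cry1 run upward, Nr1d1, Nr1d2 and Per3 downward, and Per2 shows 2 DJ mice and 1 DJ526 mouse below the rest.

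The relations were computed again within diets, within slides and without the extreme mice. With each group's mean subtracted, r with Arntl was 0.951 for Clock, 0.903 for Cry1, -0.939 for Nr1d1 and -0.918 for Nr1d2 (adjusted p = 0.021 for each, exact permutation within groups); Per3 had r = -0.764 with adjusted p = 0.083 (exact permutation). With each slide's mean subtracted, r was 0.890, 0.805, -0.870 and -0.899 for the same 4 (adjusted p of 0.023 or 0.024, exact permutation within slides), and Per3 did not pass. By rank within slides Clock and Nr1d2 passed (rho = 0.90 and -0.89, adjusted p = 0.034 for each, exact permutation), while Cry1 and Nr1d1 did not (rho = 0.700 and -0.773, adjusted p = 0.087 and 0.082, exact permutation). A slide held 3 or 4 of these mice, too few for an r of its own. Without Ctrl mouse 2 and DJ526 mouse 3, the 2 farthest from the Arntl median, r over 9 mice was 0.836 for Clock, 0.735 for Cry1, -0.716 for Nr1d1, -0.789 for Nr1d2 and -0.417 for Per3. Clock then passed (adjusted p = 0.030, exact permutation), while Cry1, Nr1d1 and Nr1d2 did not (adjusted p of 0.055, 0.059 and 0.055, exact permutation). By rank the calls differed: Cry1 and Nr1d2 passed (rho = 0.833 and -0.833, adjusted p = 0.037 for each, exact permutation), and Clock did not (rho = 0.683, adjusted p = 0.151), nor did Nr1d1 (rho = -0.500, adjusted p = 0.383). The signs remained, but the tests of these relations rest in part on those 2 mice. Leaving out Ctrl mouse 2 alone gave 4 relations past the threshold, with r = 0.857 for Clock, 0.758 for Cry1, -0.798 for Nr1d1, -0.841 for Nr1d2 and -0.513 for Per3. With the flagged Arntl spot of DJ mouse 2 kept, 1 relation passed by Pearson r: Clock had r = 0.804, while Nr1d1 had -0.269, Cry1 0.264 and Nr1d2 -0.546. By rank over the 12 mice, Nr1d2 (rho = -0.909), Clock (0.867) and Per3 (-0.692) passed, with adjusted permutation p of 0.0013, 0.0026 and 0.047. Cry1 and Nr1d1 did not (rho = 0.643 and -0.441, adjusted permutation p = 0.063 and 0.199).

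Ctrl mouse 2 differed in another list as well. The keratin gene Krt19, a marker of bile duct cells, stood at 0.60 in that mouse, against -2.39 and -2.31 in the other Ctrl mice, and the summed level of 4 bile duct markers was 0.94 there while it did not exceed -0.77 in any RS, DJ or DJ526 mouse. Over the 11 mice r with Arntl was 0.618 for Krt19, 0.684 for Epcam, 0.460 for Krt7 and 0.340 for Sox9. Outside Ctrl mouse 2, Krt19 lay between -2.71 and -1.81, and its r without that mouse was not computed. The part of bile duct cells in the clock gene levels was not tested beyond the values without that mouse given above.

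Across all pairs of clock genes, r between the limbs was mostly negative. Of 21 pairs of an activating with a repressing gene, 18 had r below 0, with a median of -0.240. The 3 exceptions were Cry1 with Arntl, Cry1 with Clock (r = 0.465) and Per1 with Npas2 (r = 0.021). Clock and Per3 had the lowest r of these, -0.905 over 12 mice. None of the 3 activating pairs was below 0. Of 21 pairs inside the repressing limb, 6 were below 0, and 5 of those involved Cry1, down to -0.911 with Nr1d1; the sixth was Per2 with Nr1d1 (r = -0.227). Nr1d1 and Nr1d2 had r = 0.867. Cry1 was thus the repressing gene with a positive r to Arntl and Clock. The pairs share mice, arrays and scaling, and are given as a description.

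**Figure D4:**
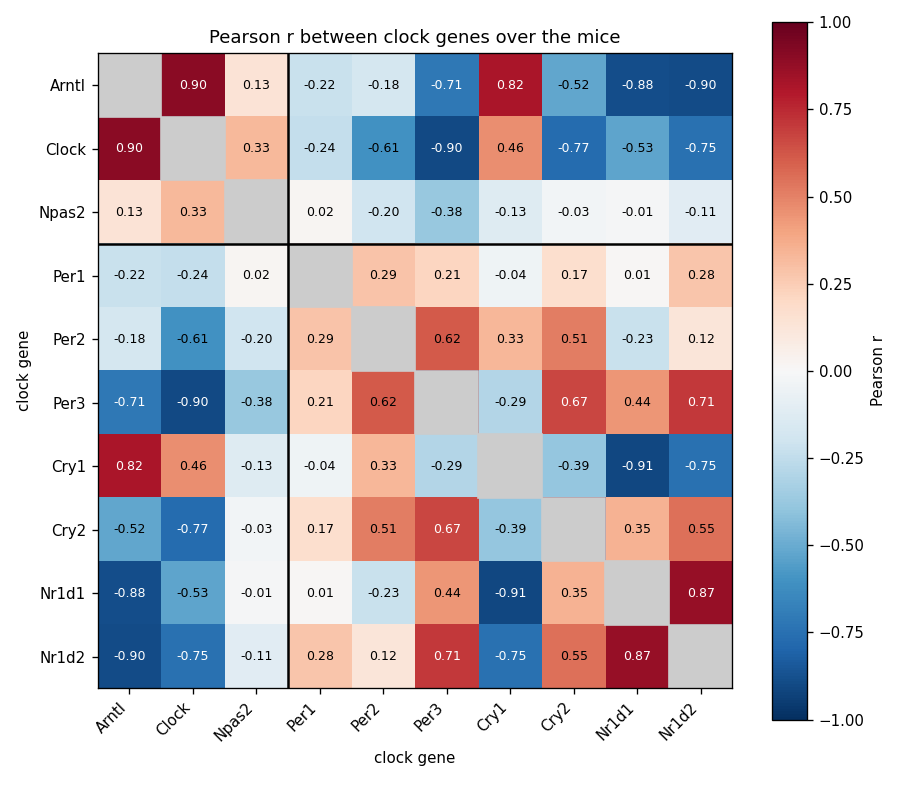
Pearson r for each pair of the 10 clock genes over the mice (12 mice, or 11 for pairs with Arntl), with lines between the activating and repressing limbs. Arntl and Clock are negative with Per3, Cry2, Nr1d1 and Nr1d2 and positive with Cry1, and Npas2 is near 0 with most genes.

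Promoter sequence is shown for Arntl and for those genes that went with it whose window held a known element of the clock proteins. RefSeq windows (GRCm38.p6) of 250 bases before to 50 after the transcription start were found for 9 of the 10 genes, in 13 windows. Searched on both strands were the E-box CACGTG, which ARNTL and CLOCK bind, and the E-box-like element CACGTT, which on the opposite strand reads AACGTG. The ROR element TAGGTCA, which the NR1D proteins bind, and the D-box TTATGTAA, a site of DBP and its relatives, were searched likewise. The 4 motifs were in 7.15%, 4.68%, 2.61% and 0.938% of all 32851 windows. At least 1 was found in 6 genes, of which 4 are printed below with the motifs in capitals. None was found for Clock and Nr1d2, which had the highest and the lowest r with Arntl, nor for Npas2. Per1 and Cry2, which did not pass with Arntl, held an E-box and an E-box-like element and are not printed.
Arntl, chr7:113207531-113207557, plus strand, 30 bases after the start: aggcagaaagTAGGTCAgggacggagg
Nr1d1, chr11:98775378-98775430, minus strand: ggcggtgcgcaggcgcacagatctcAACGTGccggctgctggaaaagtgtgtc
Cry1, chr10:85185084-85185158, minus strand: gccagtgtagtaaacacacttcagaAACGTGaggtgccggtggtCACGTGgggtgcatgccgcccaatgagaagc
Per3, chr4:151044791-151044895, minus strand: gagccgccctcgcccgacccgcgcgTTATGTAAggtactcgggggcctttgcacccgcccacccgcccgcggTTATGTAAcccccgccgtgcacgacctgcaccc
Arntl holds an element of the NR1D receptors, Cry1 both kinds of E-box, Nr1d1 an E-box-like element and Per3 a pair of D-boxes. These are matches of letters; binding was not measured.

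Known clock outputs were among the genes outside the core set that moved most nearly opposite to Arntl. Among 20290 named probes of 15581 genes well above background on every array, the lowest r with Arntl was that of Dbp, the D-box-binding activator driven by ARNTL and CLOCK (r = -0.966, the brighter of its 2 probes). Its level was 5.40, 2.41 and 4.71 in Ctrl, 4.53, 4.86 and 4.57 in RS, 3.48, 3.83 and 5.35 in DJ, and 4.10, 4.57 and 5.59 in DJ526. The mouse lowest for Dbp was again Ctrl mouse 2 and the highest DJ526 mouse 3. Coq10b, Wipf3 and Pcsk4 followed at -0.920, -0.918 and -0.916, then Ciart, a repressor of the ARNTL and CLOCK pair, at -0.903. The highest were Leo1 (0.923), Hdac5 (0.920), Dip2b (0.919), Sdcbp2 (0.916) and Gpr18 (0.915). Dip2b, Sdcbp2 and Gpr18 were dim, with lowest levels of -6.34, -5.58 and -6.54. The lowest level well above background on an array lay between -7.22 and -6.66, so their r is less reliable. Only 9 probes were above 0.9 and 6 below -0.9. On the same scale the r of Nr1d2 was lower than that of all but 0.0394% of the probes, that of Nr1d1 lower than all but 0.0542%, and that of Clock higher than 99.96%. Ranks were made over 11 mice that shared arrays and scaling, and no test was made on them.

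Clock outputs and second-loop genes, 11 in all, gave no call in any comparison of diets. Of these, Tef, the D-box activator related to Dbp, had r = -0.882 with Arntl, and Nfil3, which represses from the same element, 0.894. In DJ526 against DJ, 9 of 11 were above 0, with a median of 0.40 where the median of all probes was 0.04, and 3 did not overlap, all higher (12.2% of probes). None of the 11 had an unadjusted p under 0.05 there, where 9.84% of all probes did. Bhlhe41, a repressor of the pair, differed there by 0.77 (SE 0.40, adjusted p = 0.551 by limma), but it was faint. Rorb differed by 0.64 (SE 0.37, adjusted p = 0.586 by limma) and Rora, an activator at the ROR element, by 0.52 in DJ526 against RS (SE 0.15, adjusted p = 0.479 by limma).

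The 12 kinases, ubiquitin ligases and other regulators of clock proteins gave no call either. Gsk3b, a kinase of several clock proteins, was 0.28 higher in DJ526 than in RS (SE 0.10, adjusted p = 0.684 by limma), and Fbxl21, an F-box gene, stood 0.28 lower (SE 0.17, adjusted p = 0.981 by limma).

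Of 16 genes with a rhythm in liver, 0 passed in any comparison. In DJ against Ctrl 6 had an unadjusted p under 0.05, where 5.25% of all probes did. This list, like the others, was chosen with earlier results of these data known. Such counts are therefore a description and not a test of the list. Of the 16, 10 were below 0 there, with a median of -0.31 beside -0.02 for all probes. In DJ526 against DJ, 12 of 16 were above 0 with a median of 0.18 beside 0.04 for all probes, and 3 of the 16 had an unadjusted p under 0.05, where 9.84% of all probes did. These 2 comparisons share the DJ mice. Wee1, a kinase that holds back mitosis and is driven from E-boxes, was -0.52, -1.77 and -0.95 in DJ, below all DJ526 mice at -0.44, -0.02 and 0.10, a difference of 0.96 (SE 0.32, adjusted p = 0.402 by limma). Cyp7a1, the rate-limiting enzyme of bile acid synthesis, was 1.28, 1.36 and 2.16 in Ctrl and 0.40, 0.64 and 0.77 in DJ526, a difference of -0.997 (SE 0.41, adjusted p = 0.424 by limma). Elovl3, a fatty acid elongase, differed by -1.63 in the same comparison (SE 0.70, adjusted p = 0.440 by limma).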

How the data were processed

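The authors deposited Feature Extraction output with the processed signal intensity of every spot, on a linear scale after background subtraction, and a normalized table of the same arrays, which held the processed signal intensity times 1 factor for each array (0.959 to 1.08) at a tolerance of 0.0001 for 99.9% of probes. Here control spots and spots flagged as outliers were left out, spots of a probe averaged, and log2 intensity less the 75th percentile of each array taken as the level. Probes were named by RefSeq accession, 27502 with 1 symbol and 11927 with none. Differences were fitted with limma 3.58.1 in R 4.3.3 on all 39429 probes, with 1 mean per diet, a variance prior with a trend on level, and Benjamini-Hochberg adjustment at 0.05. The methods' test was an unpaired t-test, run as an alternative. Relations used 100000 resamples (all orders under 10 mice or within groups). Scripts were tested on simulated data. The number of arrays limits the precision. The study's methods state that livers of 3 mice a group were taken for the arrays, and the 3 samples a group are read as separate mice. The 10 members and all gene lists were chosen with earlier results of these data known. Named from the related lists were up to 3 genes each, with the largest difference among genes well above background whose mice did not overlap; the 5 highest and 5 lowest r with Arntl were named too. One gene that this rule named is not reported here.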

Additional observations from a re-analysis of the deposited data

How the results depend on the processing

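No clock gene passed the adjusted threshold under any alternative run; the lowest adjusted p was 0.095, for Per2 in DJ526 against DJ without DJ526 replicate 1. Alternatives changed background correction, scaling, value source, dim-probe filter, variance prior, slide, groups fitted, test or array set; averaging all probes of a gene equals the reported values because each gene has 1 probe. Of 60 differences, 39 lay within 1 SE of 0, and 113 of their 920 alternative values had the opposite sign; of the 500 alternative values of the other 21, 8 did. The slide as a fixed block gave 26 of these 121 and leaving out Ctrl replicate 2 gave 15. Per1 was 0.0067 in RS against Ctrl with normexp background and 0.0078 in DJ against Ctrl with the slide as a fixed block. With that block Per3 was -0.23 in DJ526 against Ctrl, and Nr1d1 -0.72 in DJ and -1.01 in DJ526. Leaving out 1 array, ranges were -0.0024 to 0.25 for Per1 in DJ526 against RS, -0.052 to 0.63 for Per3 in DJ526 against Ctrl, and -0.0086 to 1.51 for Nr1d1 in DJ against Ctrl. By Pearson r, 5 of 9 Arntl relations passed the threshold in the main run, and 4 to 5 without single arrays. The number was 1 without the 2 farthest mice, 1 with flagged spots kept and 1 in the deposited table. The last 2 settings were chosen after seeing the data. Those last 2 both hold an Arntl value for DJ mouse 2 and are not separate checks. Their r was 0.804 and 0.783 for Clock, 0.264 and 0.257 for Cry1, and -0.269 and -0.279 for Nr1d1. By rank, Clock, Per3 and Nr1d2 passed in both. Cry1 passed by rank in the deposited table (rho = 0.671, adjusted permutation p = 0.046) and not with flagged spots kept (rho = 0.643, adjusted permutation p = 0.063). Nr1d1 passed by rank in neither (rho = -0.441 in both). With flagged spots kept, the Arntl value of DJ mouse 2, at 4.58, was the only clock gene value that differed from the main run. What lowered the number of relations in the deposited table and without the 2 farthest mice was not tested. Over the whole array the calls in DJ526 against DJ were 4, and 107 without RS replicate 3; in DJ526 against Ctrl 2 and 166. The main fit did not pair mice by replicate number. Of 18 same-number pairs 6 had r over 0.1, and 6 of 12 arrays correlated best with their own number. Same-number r ran from -0.35 to 0.41, and r of pairs with unlike numbers from -0.42 to 0.44. Whether the numbers pair the mice was not tested. With a replicate block 0 clock genes were called. Npas2 is limited by its signal near background, and Arntl by 1 missing value.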
